A study of Macaca fascicularis with 2 samples.

Results

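The HOX genes of 1 single-cell library from cynomolgus monkey (*Macaca fascicularis*) nucleus pulposus (NP) and articular cartilage (AC) are described here. They were every row of the deposited matrix named *HOXA*, *HOXB*, *HOXC* or *HOXD* followed only by digits, which gave 34 of 21371 rows. The RefSeq gene table for this species names 39 such genes, and *HOXB3*, *HOXC4*, *HOXC10*, *HOXC11* and *HOXD11* were not analysed here. Of the 34 rows, 11 belonged to the HOXA cluster, 9 to HOXB, 6 to HOXC and 8 to HOXD.

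HOX genes code for homeodomain transcription factors and lie in clusters, in which the order of the genes follows the order of their domains along the head-to-tail axis of the embryo. Low-numbered paralogs are switched on first and furthest forward, and high-numbered paralogs later and further back. High-numbered HOXA and HOXD genes are used again in the limb bud. Adult connective tissue cells are known to keep a part of this pattern. The NP is the gelatinous core of the intervertebral disc, formed from the notochord, a midline rod that lies along most of the body axis. Articular chondrocytes of the knee come from limb mesenchyme.

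The cells came from wild-type male monkeys that were 3 years old, and no animal was treated. For 1 monkey both tissues were used, with the NP coming from a lumbar disc and the AC from a condyle of the left femur. According to the paper's methods, a different monkey contributed AC only. The paper's sample table also lists an NP sample of that other monkey, under earlier data. No source used here ties that sample to a tag. Dissociated live cells were labelled with the sample tags A951 to A954, sorted, pooled and sequenced as 1 TAS-seq library, called WTA8, in which each cell is a bead barcode and reads are counted without molecular identifiers. The study compared NP with AC, but the sources used here do not say which of the 4 tags marks which tissue or monkey, and the label lists 3 tissue samples (AC3, NP3 and AC4) for the 4 tags. Each tag is therefore described alone, tissue and tag cannot be told apart, and no tag stands for a replicate. A second matrix, WTA4, with 1358 cell columns that no sample label lists, holds the same 34 HOX rows and is given as a description of unlisted cells.

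Of 5674 cells with a single tag in WTA8, 5653 had 200 to 9000 genes detected and under 5% mitochondrial reads. Their totals ranged from 24907 to 1290096 reads per cell with a median of 198432. Notochordal cells were those with at least 5 reads of *KRT19*, a keratin of notochordal cells, and at least 5 reads of *TBXT*, the notochord transcription factor brachyury. There were 310 of them, 67 in A951, 236 in A952, 5 in A953 and 2 in A954. The other 5343 cells numbered 928, 889, 1372 and 2154 in the same order. Because only A951 and A952 held 20 or more notochordal cells, comparisons within a tag were limited to them. Median depth was 186370 reads in notochordal and 199072 reads in other cells, and median genes detected were 4061 and 3819. WTA4 had 1347 cells within the same limits, 138 of them notochordal (62 in A953 and 76 in A954, none in A951 or A952). The median was 3782.5 genes in its notochordal and 4301 genes in its other cells. Its notochordal cells were also shallower, with a median of 81906 against 127073 reads, and 77732 against 158319 reads within A954. The kept cells of both libraries had 15 barcode numbers in common, and no number occurred more than once within a library.

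The labels were checked against markers. Apart from the pair of genes that defined them, the notochordal cells had higher levels of *SHH*, a secreted hedgehog ligand, with at least 5 reads in 23.2% of them and in 0.206% of other cells. The cell adhesion genes *CDH2* (43.5% against 0.337%) and *NCAM1* (78.7% against 9.28%) were also higher. *FOXA2*, a notochord transcription factor, went the other way, with 0.908 reads per 1000000 reads (rpm) in notochordal and 5.46 rpm in other cells. Of the 4 notochordal markers measured that did not define the group, 3 were thus higher and 1 was lower. Among other cells, 100% had at least 5 reads of *COL2A1* and 98.3% of *ACAN*, the main collagen and proteoglycan of cartilage. Of the 6 chondrocyte markers, *SOX9* and *ACAN* were higher in notochordal cells and 4 were lower, among them *COL2A1* (1269 against 20072 rpm) and *MATN3* (35.1 against 425 rpm). Markers of other cell types were low. The 5 immune markers summed to 22.3 rpm in notochordal and 47.4 rpm in other cells, with *CD74* the most abundant in other cells and *PTPRC* at 0.700 rpm there. The 3 endothelial markers summed to 2.80 and 2.15 rpm, with *CDH5* at 0.227 and 0.183 rpm. The 3 bone markers summed to 3.74 and 49.9 rpm, led by *IBSP* at 30.0 rpm in other cells, while *SP7* was at 0.169 rpm. The 2 muscle markers with a row summed to 25.0 and 4.50 rpm, and the 3 nerve and glia markers to 4.22 and 2.86 rpm. The part of such cells in the HOX values was not tested.

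A level below is the pooled reads of a gene over a group of cells per 1000000 reads of that group. A ratio is the log2 of the notochordal over the other level, with a group under 3 reads set to 3. A gene was taken as measured well enough for a ratio when at least 10 cells had at least 5 of its reads. Intervals are exact 95% intervals (Poisson for levels, Clopper-Pearson for shares) and cover counting error only, since PCR copies are not independent molecules. For a share of 0, the limit given by 3 cells of the group is also stated, and the limits given for 0 of 310 cells hold for every gene present in no notochordal cell. With 1 library there was no test between groups of cells, and a difference of at least 2-fold is called higher or lower. The same gene is compared between groups of cells, but no level is compared between genes, because reads were not corrected for gene length.

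Single reads were read with care. At least 1 read of *TBXT* was found in 10.4% of other cells and at least 5 reads in 0.599% of them, and for *KRT19* these shares were 10.6% and 0.992%. A gene was therefore called present in a cell from 5 reads. No HOX gene was present in 10% of the cells of either group. At least 1 HOX gene was present in 70 of 310 notochordal cells (22.6%, 18.0 to 27.6) and in 1731 of 5343 other cells (32.4%, 31.1 to 33.7).

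The HOX genes divided by paralog number. Notochordal cells had higher levels of low-numbered HOXA genes, from *HOXA2* to *HOXA5*, and other cells had higher levels of every measured gene from paralog 8 onwards, in the HOXA, HOXC and HOXD clusters. Of the 34 HOX genes, 18 were measured well enough for a ratio, and 16 were not. Among the 18, 5 were higher in notochordal cells (27.8%), 12 were lower (66.7%), and *HOXA7* lay between the limits. Over all 11615 genes measured, 25.7% were higher and 14.4% were lower. Of the higher genes, *HOXA2* and *HOXA3* passed the filter only with their 8 and 6 notochordal cells counted, each having 8 other cells. The share of higher genes is therefore not read against the background. All 12 lower genes passed the filter through other cells, since each was present in at most 3 notochordal cells. Their share is not read against the background either. With no filter, 11 of the 34 HOX genes were higher and 14 were lower. The higher genes were 3 of 16 after thinning to 50000 reads and 1 of 10 with 5 reads in at least 50 cells. With differences of mean log2 values, no HOX gene of the 18 passed a limit of 1 in either direction. These are means over cells of the log2 of rpm plus 1, and most cells enter as 0. Such a difference is not a log2 fold change, so that limit does not mean 2-fold. The median ratio was -3.72 over the 18 HOX genes, with the same limit from the filter, and 0.29 over all genes. All 9 measured genes of paralogs 8 to 13 were lower, with ratios from -2.02 to -6.35, while of the 6 measured genes of paralogs 1 to 5 there were 4 higher and 2 lower.

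**Figure D1:**
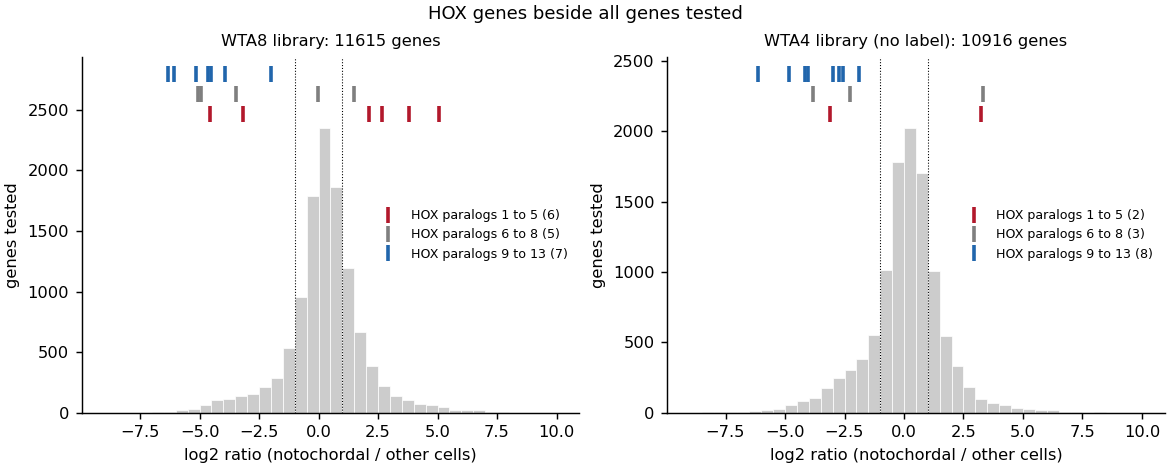
Histogram of the log2 ratios (notochordal over other cells) of all genes measured in WTA8 (left, 11615 genes) and WTA4 (right, 10916 genes), with the HOX genes as ticks above it and dotted lines at 2-fold. Every tick of paralogs 9 to 13 lies to the left of the lower line in both libraries.

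The low-numbered HOXA genes were considered first. *HOXA5*, which acts in patterning of the neck and upper trunk, was at 24.7 rpm (23.5 to 25.9) in notochordal and 5.66 rpm (5.53 to 5.79) in other cells. It was present in 28 of 310 notochordal cells (9.03%, 6.09 to 12.8) and in 166 of 5343 other cells (3.11%, 2.66 to 3.61). By tag, its level in notochordal cells was 15.7 rpm in A951 and 27.0 rpm in A952, and 17.6 and 57.0 rpm in the 5 and 2 cells of A953 and A954. In other cells it was 6.05, 5.31, 7.30 and 4.66 rpm from A951 to A954. Each notochordal value was above all 4 values of other cells. The ratio was 2.12 over all tags, 1.37 within A951 and 2.34 within A952.

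*HOXA4*, which acts in the same region of the axis, was at 10.2 rpm (9.46 to 11.02) in notochordal and 0.740 rpm (0.694 to 0.789) in other cells, a ratio of 3.79. It was present in 19 notochordal cells (6.13%, 3.73 to 9.41) and in 13 other cells (0.243%, 0.130 to 0.416). Its level was 14.7 rpm in A951 and 9.66 rpm in A952 in notochordal cells, and no read was found in the few notochordal cells of A953 and A954. In other cells it was 0.853, 0.449, 0.175 and 1.13 rpm. Both of the larger groups of notochordal cells thus lay above every group of other cells.

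*HOXA2*, known for its part in the hindbrain and neural crest, was at 5.34 rpm (4.80 to 5.93) in notochordal and 0.158 rpm (0.137 to 0.182) in other cells, and was present in 8 cells of each group (2.58% and 0.150%). Its level was 6.06 rpm in A951 and 5.43 rpm in A952 in notochordal cells and 0.191, 0.199, 0.0754 and 0.183 rpm in other cells. *HOXA3*, which patterns pharyngeal organs and the neck, was at 2.01 rpm (1.68 to 2.39) against 0.321 rpm (0.290 to 0.353), and was present in 6 and 8 cells (1.94% and 0.150%). The 2 tags with notochordal cells differed for it, with 7.70 rpm in A951 and 0.760 rpm in A952, and 93 of its 133 reads came from 1 cell. In other cells *HOXA3* was at 0.426, 0.133, 0.833 and 0.0426 rpm, so that the A952 notochordal level lay below the A953 level of other cells. The ratios were 5.08 for *HOXA2* and 2.65 for *HOXA3*, and that of *HOXA3* was 1.27 without A951 and 1.58 without the top cell of each group.

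Together, *HOXA2* to *HOXA5* were present in 58 notochordal cells (18.7%, 14.5 to 23.5) and in 192 other cells (3.59%, 3.11 to 4.13). The notochordal share was 20.9% (11.9 to 32.6) in A951 and 17.8% (13.1 to 23.3) in A952, and the share of other cells was 3.77%, 2.47%, 3.86% and 3.81% from A951 to A954. The intervals of both notochordal groups lay above those of other cells in every tag. These genes were grouped after their values were seen, and *HOXA2* and *HOXA3* passed the filter only with notochordal cells counted. The gap is therefore a description and no independent support. The annotated spans of *HOXA4*, *HOXA5* and *HOXA6* overlap that of *HOXA3* in RefSeq, and reads may have been shared between them in counting.

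**Figure D2:**
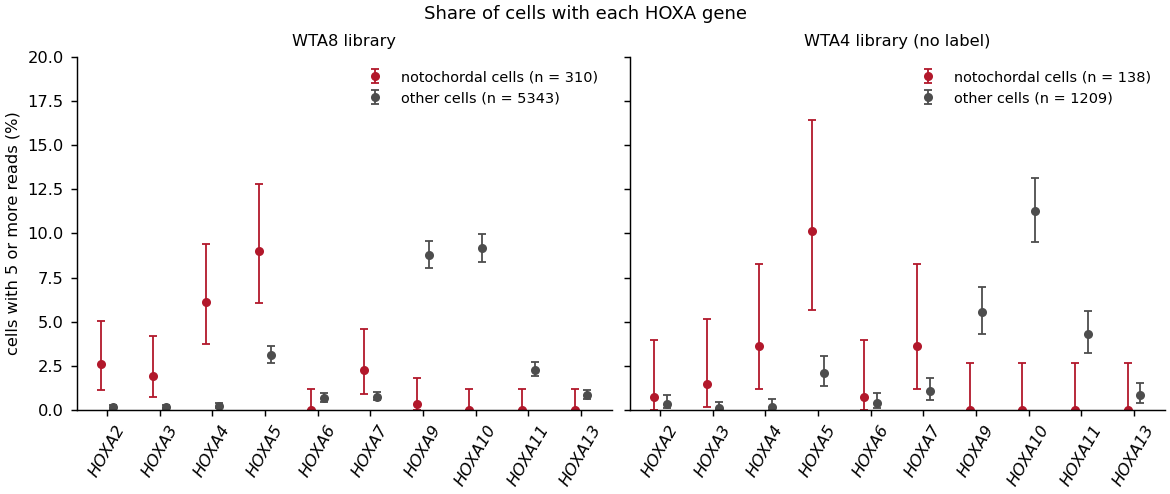
Share of cells with 5 or more reads of HOXA genes, in percent, in notochordal (red) and other cells (grey) of WTA8 (left) and WTA4 (right), with exact 95% intervals. From *HOXA2* to *HOXA5* the red points are the higher ones in WTA8, and at *HOXA9*, *HOXA10* and *HOXA11* the grey ones are, in both libraries.

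The middle paralogs were mixed. *HOXA6* had 4 reads in notochordal cells (0.0605 rpm, 0.0165 to 0.155) against 1.88 rpm (1.81 to 1.96) in other cells, a ratio of -4.96, and was present in 0 of 310 notochordal cells. A count of 0 of 310 allows a share of up to 0.968% by the limit of 3 cells, and its exact interval reaches 1.18%. Its level in other cells was 0.306, 1.24, 2.29 and 2.41 rpm from A951 to A954. *HOXA7* was at 1.68 rpm in notochordal and 1.71 rpm in other cells. *HOXC6*, a gene of the thoracic region, was at 2.88 rpm (2.48 to 3.31) against 1.03 rpm (0.971 to 1.08), a ratio of 1.49. That value rested on 1 cell of A951 with 187 of its 190 notochordal reads, and without the top cell of each group the ratio was -4.22. In other cells *HOXC6* was at 1.66, 0.980, 0.628 and 1.05 rpm, and in notochordal cells at 15.3 rpm in A951 and 0.0584 rpm in A952. *HOXC8* had 5 reads in notochordal cells (0.0757 rpm, 0.0246 to 0.177) against 2.50 rpm (2.42 to 2.59), a ratio of -5.05. Its level in other cells was 1.52, 2.94, 2.29 and 2.84 rpm by tag, and no notochordal group exceeded 0.0820 rpm. *HOXD8* was at 0.711 rpm against 7.99 rpm, and was present in 1 notochordal cell and 252 other cells (4.72%). In RefSeq the spans of *HOXC6*, *HOXC8* and *HOXC9* overlap each other.

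The high-numbered HOXA genes were found in other cells. *HOXA9*, which acts in the lumbar region and the proximal limb, was at 15.4 rpm (15.2 to 15.6) in other and 0.227 rpm (0.127 to 0.374) in notochordal cells. It was present in 470 other cells (8.80%, 8.05 to 9.59) and in 1 notochordal cell (0.323%, 0.00817 to 1.78). By tag, other cells had 13.2, 14.7, 10.6 and 19.2 rpm, while notochordal cells had 0.0820 rpm in A951 and 0.273 rpm in A952. The ratio was -6.08 over all tags and -5.75 within both A951 and A952.

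*HOXA10*, a gene of the lumbar region and hind limb, was at 19.7 rpm (19.5 to 20.0) in other and 0.560 rpm (0.394 to 0.772) in notochordal cells, a ratio of -5.14. It was present in 489 other cells (9.15%, 8.39 to 9.96) and in 0 of 310 notochordal cells, with the same limits as for *HOXA6*. At least 1 read was found in 10.6% of notochordal cells, none with more than 2. Other cells had 17.5, 17.5, 17.2 and 22.7 rpm from A951 to A954, and notochordal cells had 0.410 and 0.604 rpm in A951 and A952. *HOXA11*, known for its part in the forearm and lower leg, was at 4.92 rpm (4.80 to 5.05) in other cells and had 4 reads in notochordal cells (0.0605 rpm, 0.0165 to 0.155), with a ratio of -6.35. It was present in 122 other cells (2.28%) and in no notochordal cell. Its level in other cells was 4.49, 2.51, 4.39 and 6.16 rpm, and in notochordal cells it was 0.164 and 0.0195 rpm in A951 and A952. *HOXA13*, the hand and foot member of the cluster, was at 2.10 rpm in other cells (0.824% of cells) and 0.136 rpm in notochordal cells.

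The size of these differences depended on how notochordal cells were defined. When 5 reads of *KRT19* and *TBXT* together were enough, 404 cells were notochordal, and some of them reached 5 reads of only 1 of the 2 genes. The ratio was then -2.41 for *HOXA9*, -2.65 for *HOXA10* and -1.82 for *HOXA11*, and it was -2.03 for *HOXA6* and -3.90 for *HOXC8*. All 5 genes were still lower, but by less. The ratios of *HOXA2* (4.84), *HOXA4* (3.90) and *HOXA5* (1.81) moved by under 1.5 times.

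The measured high-numbered HOXC and HOXD genes were lower in notochordal cells too, and so were the 2 measured low-numbered HOXD genes. *HOXC9* was at 7.28 rpm against 0.288 rpm, *HOXD9* at 3.49 rpm against 0.151 rpm, and *HOXD10* at 7.28 rpm against 1.80 rpm, each higher in other cells. *HOXD10* was present in 3 notochordal cells, all in A952, and 90 of its 119 notochordal reads came from 1 of them. The low-numbered genes *HOXD1* and *HOXD3* were also lower in notochordal cells, unlike *HOXA2* to *HOXA5*. *HOXD3* was at 0.242 rpm (0.138 to 0.393) against 2.12 to 2.28 rpm (the interval) in other cells and was present in 81 other cells and no notochordal cell. *HOXD1* had 3 reads (0.0454 rpm, 0.00936 to 0.133) against 1.07 rpm (1.01 to 1.12). Low-numbered HOX genes were thus higher in notochordal cells in the HOXA cluster, and the 2 measured low-numbered HOXD genes were not.

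Among the 16 genes without a ratio were all 9 HOXB genes, *HOXC5*, *HOXC12*, *HOXC13*, *HOXD4*, *HOXD12* and *HOXD13*. Other cells had at most 0.187 rpm of each of these, and *HOXC5*, with 9 of 5343 other cells, was present in the most. The HOXB cluster gave 0.544% of all HOX reads in other cells and 4.68% in notochordal cells. A HOXB gene was present in 1 of 5343 other cells and in 5 of 310 notochordal cells (1.61%, 0.526 to 3.72). In the notochordal cells, 93 of the 96 reads of *HOXB13* and 44 of the 63 reads of *HOXB2* came from 1 cell each.

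The make-up of all HOX reads was compared between the groups of cells. Paralogs 1 to 5 gave 82.6% of 4040 HOX reads in notochordal cells and 12.4% of 110266 in other cells. Paralogs 9 to 13 gave 8.04% and 69.9%, and paralogs 6 to 8 gave 9.31% and 17.7%. By tag, paralogs 6 to 8 gave 25.8% of HOX reads in notochordal and 19.9% in other cells of A951, and 4.46% and 16.1% in A952, so that the order was not the same in both. The 8.04% was 24.0% with 5 reads of *KRT19* and *TBXT* together, 5.09% without the top cell of each gene and 3.15% without A952. In other cells the share of paralogs 9 to 13 was 68.4%, 69.5%, 65.8% and 72.7% from A951 to A954. In notochordal cells it was 3.28% in A951 and 9.37% in A952. The clusters differed too: HOXA gave 84.6% of HOX reads in notochordal and 60.8% in other cells, HOXC 5.67% and 12.9%, and HOXD 5.02% and 25.7%. The HOXC share went both ways by tag, with 25.6% against 12.98% in A951 and 1.07% against 11.2% in A952, and 187 of the 229 notochordal HOXC reads were the *HOXC6* reads of 1 cell of A951.

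Counted by cell, a gene of paralogs 9 to 13 was present in 4 of 310 notochordal cells (1.29%, 0.353 to 3.27) and in 1336 of 5343 other cells (25.0%, 23.8 to 26.2). With 5 reads of *KRT19* and *TBXT* together, the notochordal share was 5.20% of 404 cells. A gene of paralogs 1 to 5 was present in 63 notochordal cells (20.3%, 16.0 to 25.2) and in 310 other cells (5.80%, 5.19 to 6.46). Within A951 the shares for paralogs 9 to 13 were 0 of 67 (up to 4.48% by the limit of 3 cells, exact interval to 5.36%) and 22.0% (19.4 to 24.8), and within A952 they were 1.69% (0.464 to 4.28) and 19.1% (16.6 to 21.9). The intervals did not overlap within either tag. For paralogs 1 to 5 the shares were 20.9% (11.9 to 32.6) and 5.06% (3.75 to 6.68) in A951, and 19.9% (15.0 to 25.6) and 4.50% (3.23 to 6.08) in A952. Both patterns held over quartiles of genes detected. From the lowest to the highest quartile, paralogs 9 to 13 were present in 12.9%, 21.8%, 27.5% and 37.9% of other cells, and in 0, 1, 1 and 2 notochordal cells per quartile.

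**Figure D3:**
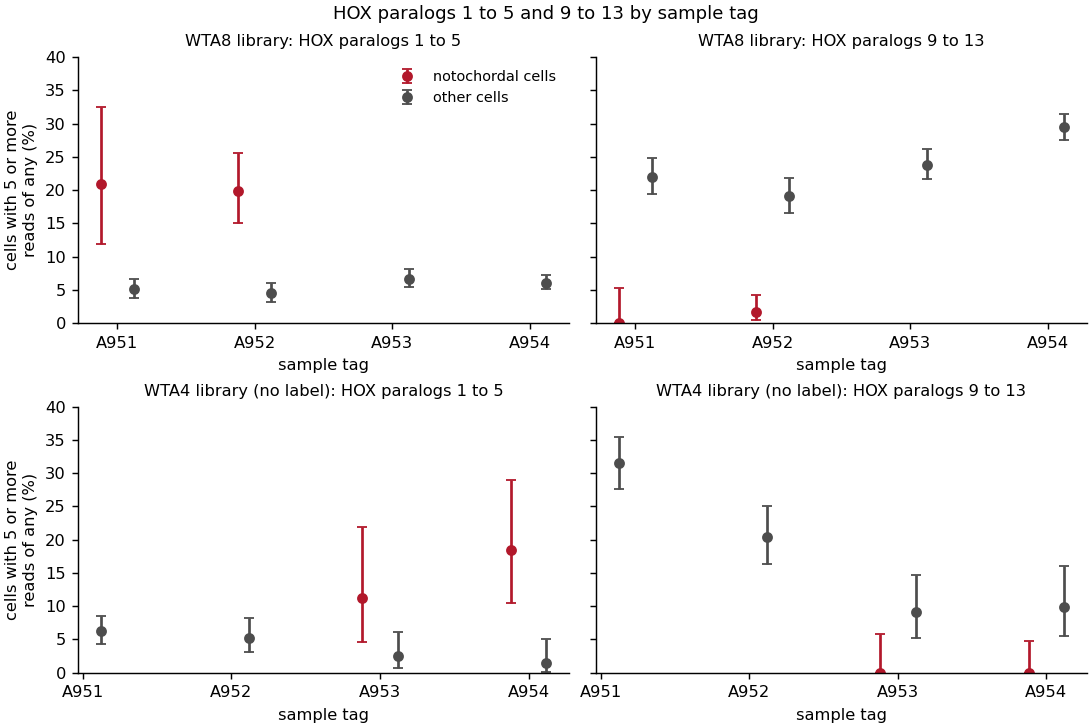
Share of cells with 5 or more reads of any HOX gene of paralogs 1 to 5 (left) or 9 to 13 (right), in percent with exact 95% intervals, by sample tag in WTA8 (upper) and WTA4 (lower). Notochordal cells (red) are drawn for tags with 20 or more of them. They lie above other cells (grey) on the left and below them on the right in every tag where both are drawn, but the intervals overlap in A953 of WTA4 for both groups of genes.

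In most HOX-positive cells a single HOX gene was present, in 58 of 70 notochordal cells (82.9%) and 1258 of 1731 other cells (72.7%). The highest paralog present was 4 or 5 in 41 of the 70 notochordal cells, 1 to 3 in 15, 6 to 8 in 10, 9 or 10 in 3 and 11 to 13 in 1. Among the 1731 other cells it was 9 or 10 in 1171 (67.6%), 11 to 13 in 165 (9.53%), 6 to 8 in 244, 4 or 5 in 93 and 1 to 3 in 58. Genes of paralogs 1 to 5 and of 9 to 13 were both present in 3 notochordal and 137 other cells. When every cell was thinned to 50000 reads, leaving out 11 notochordal and 196 other cells with fewer, and a single read counted, the highest paralog was 9 to 13 in 8.36% of notochordal and 31.8% of other cells. It was 1 to 5 in 19.1% and 4.88%. In the thinned cells of A951 and A952 the share at 9 to 13 was 9.23% and 8.33% in notochordal cells and 28.6% and 27.4% in other cells.

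Neighbouring genes were present in the same cells only in part. Among other cells, 92 of the 470 with *HOXA9* also had *HOXA10* (19.6%), compared with 9.15% of all other cells. Cells with *HOXA9* had a median of 4345.5 genes detected and all other cells 3819, and the part of depth in this was not tested. Of the 122 cells with *HOXA11*, 33 had *HOXA10* (27.0%). In notochordal cells, 2 of the 19 cells with *HOXA4* had *HOXA5*. *HOXA2* to *HOXA5* were present in 11 of 72 notochordal cells with *SHH* (15.3%, 7.88 to 25.7) and in 47 of 238 without it (19.7%, 14.9 to 25.4), so that these intervals overlapped.

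Among other cells, 16 HOX genes had enough reads for a comparison of the 4 tags, and their levels spread by 1.32-fold to 9.02-fold. Of these, 4 differed at least 4-fold between the highest and the lowest tag (25.0%), against 5.52% of all 11414 genes. This count was 2 of 15 after thinning to 50000 reads and 0 of 10 when 5 reads in at least 50 cells were asked for. The median spread was 1.26 on the log2 scale for these HOX genes and 0.51 for all genes. The 4 were *HOXA4*, *HOXA6*, *HOXA7* and *HOXD1*, each present in under 1% of other cells. *HOXA4* and *HOXA6* passed the filter mainly through A954, their highest tag, with 8 of 13 and 19 of 36 cells. Neither the count nor the median spread is therefore read against the background. *HOXA7* was at 2.80, 0.310, 0.839 and 2.28 rpm from A951 to A954, and *HOXD1* at 0.376, 1.33, 1.97 and 0.697 rpm, so the tags did not take the same order for them. *HOXA10* (1.32-fold), *HOXD9* (1.34-fold) and *HOXD8* (1.37-fold) differed least. Other high-numbered genes spread more, with *HOXA11* at 2.51 to 6.16 rpm (2.45-fold) and *HOXC9* at 4.38 to 10.6 rpm (2.42-fold). The share of other cells with a gene of paralogs 9 to 13 was 22.0%, 19.1%, 23.8% and 29.5% from A951 to A954, and the interval of A954 (27.6 to 31.5) lay above those of the others. A954 also had the deepest other cells, with a median of 222696 reads against 184588, 175762 and 197492, and the part of depth was not tested. At 50000 reads per cell the highest paralog was 9 to 13 in 28.6%, 27.4%, 30.4% and 35.7% of them.

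**Figure D4:**
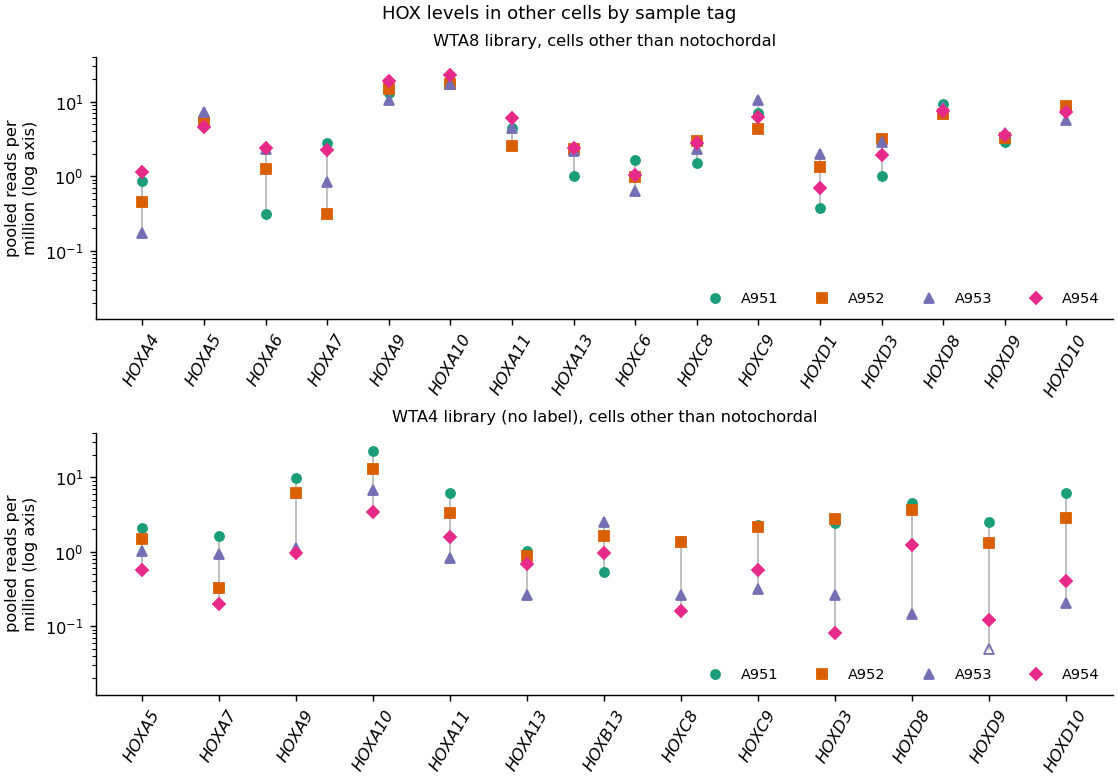
Pooled level in rpm (log axis) of each measured HOX gene in other cells of WTA8 (upper) and WTA4 (lower), 1 symbol for each sample tag, with a grey line from the lowest to the highest tag. The open triangle is a level of 0 set at 0.05. In WTA8 *HOXA10*, *HOXD8* and *HOXD9* lie close together across tags, and in WTA4 11 of 13 genes spread at least 4-fold.

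Within tag A951, 8 HOX genes were measured well enough for a ratio, and 1 (*HOXA5*) was higher and 7 were lower, where 26.2% of all genes were higher and 20.9% lower. Within A952, 11 were measured, and 2 (*HOXA4* and *HOXA5*) were higher and 9 were lower, where 25.8% of all genes were higher and 13.9% lower. The lower genes of A951 were *HOXA9*, *HOXA10*, *HOXA11*, *HOXC9*, *HOXD8*, *HOXD9* and *HOXD10*. These 7 were among the 9 lower genes of A952, with *HOXC8* and *HOXD3* besides. The lower genes passed the filter through other cells, being present in no notochordal cell of A951 and in at most 3 of A952, and *HOXA4* passed it in A952 mainly through notochordal cells (14 against 2 other cells). The counts are therefore not read against the background.

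The unlisted WTA4 library was examined in the same way. Its 138 notochordal and 1209 other cells gave a ratio for 13 HOX genes, of which *HOXA5* and *HOXA7* were higher in notochordal cells and 11 were lower. These ratios mix tag with cell type, because notochordal cells lay only in A953 and A954 while most other cells lay in A951 and A952, where many HOX genes were higher. None of the 11 lower genes was present in a notochordal cell, so they passed the filter through other cells alone and their count is not read against the background. Over all 10916 genes, 22.1% were higher and 18.2% lower. The median was -2.98 for HOX genes and 0.17 for all genes. Of the 13 genes, 10 had fewer than 3 reads in notochordal cells and entered this median at the limit of 3 reads, and 7 of them had none. *HOXA5* was at 14.8 rpm in notochordal cells (10.1% of cells) and 1.55 rpm in other cells (2.07%), a ratio of 3.25. It was at 9.75 and 19.5 rpm in the notochordal cells of A953 and A954 and at 2.11, 1.51, 1.04 and 0.564 rpm in other cells from A951 to A954, without overlap. *HOXA4* was at 4.31 against 0.172 rpm, *HOXA3* at 1.77 against 0.0914 rpm and *HOXA2* at 1.20 against 0.527 rpm, all from too few cells for a ratio. *HOXA7* was at 9.75 against 0.967 rpm, and all of its 138 notochordal reads lay in 5 cells of A953. *HOXA6* was at 1.98 against 0.414 rpm, with 27 of 28 notochordal reads in 1 cell, and *HOXC6* at 0.141 against 0.118 rpm. *HOXA10* had 1 read in notochordal cells against 14.7 rpm in other cells (11.2% of cells), *HOXA9* 1 read against 6.07 rpm, and *HOXA11* none against 3.83 rpm. *HOXC8*, *HOXD8*, *HOXD9* and *HOXD10* also had no read in notochordal cells, with 1.02, 3.04, 1.40 and 3.43 rpm in other cells. In the other cells of A953 and A954 alone, *HOXC8* was at 0.260 and 0.161 rpm, *HOXD8* at 0.145 and 1.25 rpm, *HOXD9* at 0 and 0.121 rpm, and *HOXD10* at 0.202 and 0.403 rpm, all in at most 3 cells per tag, too few for a ratio within a tag.

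In WTA4 no gene of paralogs 9 to 13 was present in 138 notochordal cells, which allows a share of up to 2.17% by the limit of 3 cells (exact interval to 2.64%), and one was present in 276 of 1209 other cells (22.8%, 20.5 to 25.3). The part of the lower depth of the notochordal cells in this was not tested. Paralogs 1 to 5 were present in 21 notochordal cells (15.2%, 9.67 to 22.3) and in 59 other cells (4.88%, 3.73 to 6.25). The tags differed more among the other cells of WTA4 than among those of WTA8. At least 4-fold spread was found for 11 of 13 HOX genes and for 8.25% of all 10717 genes. Most of these HOX genes passed the filter mainly through A951 and A952, where they were high. *HOXD9* had no read in A953 and entered at the limit of 3 reads. The count is therefore not read against the background. Paralogs 9 to 13 were present in 31.5% (27.7 to 35.5) and 20.5% (16.3 to 25.1) of other cells in A951 and A952, and in 9.15% (5.21 to 14.6) and 9.93% (5.54 to 16.1) in A953 and A954, the tags with notochordal cells. For example, *HOXD10* was at 6.17, 2.89, 0.202 and 0.403 rpm and *HOXA9* at 9.77, 6.25, 1.13 and 0.966 rpm from A951 to A954. *HOXB13*, a tail-end gene, was an exception with 0.537, 1.65, 2.52 and 0.966 rpm. The median mitochondrial share of other cells was 2.17% and 1.33% in A951 and A952 and 0.210% and 0.225% in A953 and A954, and the 5 immune markers summed to 228, 83.6, 12.4 and 19.3 rpm, led by *CD74* at 208 rpm in A951. The 3 nerve and glia markers summed to 82.4, 133, 206 and 179 rpm in other cells, nearly all of it *TUBB3*, and to 14.6 rpm in notochordal cells. The 3 endothelial markers summed to 3.59 rpm and the 3 bone markers to 5.28 rpm in other cells. The part of these in the HOX values was not tested. Within A953 and within A954, 1 HOX gene each had enough cells for a ratio. *HOXA10* was lower in A953 (ratio -3.93 at the limit of 3 reads), where 23.5% of all genes were higher and 20.2% lower. *HOXA5* was higher in A954 (5.11), where 24.6% were higher and 18.3% lower. *HOXA10* passed the filter through 10 other cells and no notochordal cell. *HOXA5* passed it mainly through notochordal cells (11 against 1 other cell). Neither is therefore read against the background.

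Genes that work with HOX proteins or mark position were taken from lists. PBX, MEIS and PKNOX proteins are cofactors that bind DNA together with HOX proteins. All 9 were measured in WTA8, 6 were higher and 1 was lower in notochordal cells, where 25.7% of all genes were higher and 14.4% lower, and the median ratio was 1.31. *PBX3* was at 126 against 38.2 rpm, *MEIS2* at 45.7 against 22.8 rpm and *MEIS3* at 15.6 against 1.02 rpm. *PKNOX2* was lower, at 6.04 against 54.4 rpm, with 1.72 and 7.09 rpm in the notochordal cells of A951 and A952 and 49.8 to 62.0 rpm in other cells. In WTA4, 3 cofactors were higher, *MEIS2* and *MEIS3* among them, and *PKNOX2* was lower, where 22.1% of all genes were higher and 18.2% lower, while *PBX3* had a ratio of 0.26.

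Limb genes were measured mainly in other cells. Of 17 listed, 12 were measured in WTA8, 10 were lower and 1 was higher, against 14.4% and 25.7% of all genes. Each of the 10 was present in at most 5 notochordal cells and passed the filter through other cells, so this count is a description and is not read against the background. The median ratio was -3.58, in which *HAND2*, without a read in notochordal cells, stood at the limit of 3 reads. The higher gene, *LMX1B*, was at 3.95 against 1.30 rpm, and its 3 positive notochordal cells all lay in A952. In A951 it was at 0.738 against 1.21 rpm, and in WTA4 it went the other way, with 1.70 against 9.21 rpm. *GREM1*, a secreted BMP antagonist of the limb bud, was at 4.31 against 160 rpm and was present in 35.0% of other cells. *PRRX1* and *PRRX2*, homeobox genes of limb mesenchyme, were at 1.60 against 45.2 rpm and 3.48 against 70.7 rpm. *TBX15*, a T-box gene of limb skeleton, was at 0.681 against 22.8 rpm. *TBX4*, the T-box gene of the hind limb, was at 1.63 against 16.3 rpm, and *TBX5*, that of the forelimb, at 0.832 against 2.70 rpm. In other cells *TBX4* was at 19.5, 14.2, 12.6 and 18.1 rpm from A951 to A954, so that no tag lacked it. In WTA4, 8 of 9 measured limb genes were lower (18.2% of all genes), with the same limit, and *TBX4* was at 7.85 and 7.32 rpm in the other cells of A951 and A952 and at 1.45 and 1.21 rpm in those of A953 and A954.

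Genes of the axial skeleton precursors were near the limit of measurement. *PAX1* was at 0.0303 and 0.0886 rpm in notochordal and other cells, and *PAX9* at 1.06 and 0.194 rpm. The 3 genes measured, *NKX3-2* and *MEOX2* among them, were lower in notochordal cells (14.4% of all genes). *NKX3-2* and *MEOX2* were present in no notochordal cell and passed the filter through 15 and 63 other cells, so the count is not read against the background. In WTA4, 2 of 4 were lower (18.2% of all genes), with the same limit, among them *ZIC1* at 1.13 against 14.7 rpm. Of the notochord factors, *SHH* was at 98.7 against 0.847 rpm in WTA8, *FOXA2* was lower as given above, and *NOTO* was at 0.0151 and 0.0518 rpm.

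Of 16 listed genes upstream of HOX expression in the trunk, 8 were measured, 2 were higher, 3 were lower and the median ratio was 0.43. Over all genes, 25.7% were higher and 14.4% lower. Of the 2 higher genes, *CDX4* passed the filter through notochordal cells alone. Of the 3 lower genes, *RARB* and *CYP26B1* passed it through other cells alone (71 and 18 cells). The counts are therefore not read against the background. *CDX4*, a caudal-type homeobox gene that acts on HOX genes, was at 7.89 rpm in notochordal and 0.181 rpm in other cells. It was present in 17 of 310 notochordal cells (5.48%, 3.23 to 8.64) and in 0 of 5343 other cells, which allows a share of up to 0.0561% by the limit of 3 cells (exact interval to 0.0690%). Its level in notochordal cells was 2.62 rpm in A951 and 9.53 rpm in A952, and in other cells it was between 0.178 and 0.194 rpm in all tags. In WTA4 it was present in 4.35% of notochordal and 0.0827% of other cells. *RARG*, a retinoic acid receptor, was lower in both libraries, at 79.7 against 222 rpm in WTA8 and 99.1 against 228 rpm in WTA4. In WTA4, 5 genes of this list were measured, none was higher and 2 were lower, where 22.1% of all genes were higher and 18.2% lower. *RARB*, 1 of the 2, was present in no notochordal cell there, so this count is not read against the background either.

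Polycomb and trithorax proteins hold HOX genes silent or active. All 18 genes with a row were measured, 3 were higher and 1 was lower in WTA8, with a median ratio of 0.55. Both counts were below the shares over all genes (25.7% higher and 14.4% lower), so that the single genes named next are given as values only. *EZH1*, a histone methyltransferase of Polycomb, was at 45.0 against 14.7 rpm in WTA8 and 43.6 against 4.28 rpm in WTA4. *CBX8*, a Polycomb chromodomain gene, was at 9.52 against 0.676 rpm in WTA8. *SUZ12*, a partner of the EZH methyltransferases in Polycomb, was at 38.1 against 93.4 rpm in WTA8, and had a ratio of -0.14 in WTA4. In WTA4, 3 were higher, *PHC3* among them (16.8 against 8.12 rpm), and 1 was lower, *EZH2* (14.6 against 29.9 rpm), both counts being below the 22.1% and 18.2% of all genes there.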

How the data were processed

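Per the file headers and values, the deposited matrices hold raw read counts, 1 row for each gene and 1 column for each cell. The authors aligned reads to the *M. fascicularis* genome with HISAT2 2.2.1, assigned them to whole genes with featureCounts 2.0.2 and combined spliced, unspliced and ambiguous reads. No molecular identifiers were used, so PCR copies are counted. Counting was strand-specific and kept reads that fit more than 1 gene, so overlapping genes can share reads. The genome build is not given in the sources used here, and no coordinates or sequences are printed.

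Cells with 1 tag, 200 to 9000 genes and under 5% mitochondrial reads were kept. The 42 columns named doublets were left out of the comparisons, and 7 columns without a tag were not used. Totals ranged from 24907 to 1290096 reads per cell in WTA8 and from 7746 to 726339 in WTA4, which limits shares at 5 reads in shallow cells. Shares have exact Clopper-Pearson and levels exact Poisson 95% intervals, and all values came from SciPy 1.17.1, pandas 2.3.3 and NumPy 2.4.6 under Python 3.11.15. No test was made, since cells of 1 library are not replicates.

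Given with tag-by-tag values were the 5 HOX genes with the largest ratio in each direction, and HOX genes with at least 5 reads in 10% of a group (none). Of the other lists, members past 2-fold with at least 5 reads in 10% of 1 group were to be named. *HOXA7*, *HOXA13*, *HOXB2*, *HOXB13*, *HOXC5*, *HOXC9*, the HOXD genes, *TBX4*, *TBX5*, *CDX4*, *PAX1*, *PAX9*, *NOTO*, *FOXA2* and the remaining low or unchanged genes were named after their values were seen, as was the group *HOXA2* to *HOXA5*. Members and lists were chosen with earlier results of these data known. Genes of the lists without a row (among them *PITX1*, *UNCX*, *FOXC1*, *FOXC2*, *FOXA1*, *FOXJ1*, *EVX2*, *GDF11*, *CBX6*, *KMT2A*, *KDM6B*, *KRT8*, *KRT18*, *CD24*, *HBA*, *HBB* and *MYH2*) were not analysed here, so the list of blood markers gave no value. Some genes of the lists are not reported here by name.

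The ratio was tested on simulated data for the notochordal and other cells. With 200 changed among 11615 genes, 100% of the changed genes and 0.149% of the unchanged ones were past 2-fold. The simulated counts had Poisson noise only, groups of equal size and planted changes well past 2-fold. No reads were piled up in single cells, as they are for several HOX genes. The simulation thus checks the arithmetic of the ratio and gives no error rate for sparse HOX genes. Alternatives were no limits on cells, other definitions of the groups, other filters and thresholds, thinning to 50000 reads, means over cells, leaving out the top cell of each gene, the 5% of cells with most genes, or each tag, and values within tags. Counting only cells with 5 reads of a gene and taking all paralogs 1 to 5 were chosen after seeing the data.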

Additional observations from a re-analysis of the deposited data

Results flagged for a closer look

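*HOXA7* had ratios of opposite sign in the 2 tags of WTA8 with 20 or more notochordal cells. Its log2 ratio of notochordal to other cells was -3.51 in A951, where the notochordal cells had 1 read and were set to 3, and 2.79 in A952, where they had 110 reads. In each tag fewer than 10 cells had 5 reads of the gene, so these ratios did not meet the filter for a measured ratio. The difference between the tags was not tested. The level of *HOXA7* in other cells was 2.80 rpm in A951 and 0.310 rpm in A952. *HOXC6* had ratios of opposite sign too, with a log2 ratio of 3.21 in A951 and -4.07 in A952, where its notochordal cells had 3 reads, again with fewer than 10 cells in each tag. This difference was not tested either, and 1 cell of A951 held 187 of the 190 notochordal reads.

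The 42 columns of WTA8 that the authors named doublets entered no comparison. A HOX gene of paralogs 9 to 13 was present in 7 of them (16.7%, 6.97 to 31.4) and one of paralogs 1 to 5 in 2 (4.76%, 0.582 to 16.2).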

How the results depend on the processing

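No paired analysis was possible because 1 library held all cells and no test was made. The count of higher HOX genes (5) was 3 of 16 after thinning to 50000 reads, 1 of 10 with 5 reads in at least 50 cells, 11 of 34 with no filter, 1 of 8 within A951 and 2 of 11 within A952. The count of lower genes (12) was 7 of 8 within A951. With differences of mean log2 values both counts were 0 of 18, but these differences are not log2 fold changes, since most cells enter as 0. The 4 genes with a 4-fold spread between tags were 2 after thinning, 0 with at least 50 cells, 8 with no filter and 1 at 8-fold. Leaving out each tag in turn gave 3 to 4 higher, 12 to 13 lower and 2 to 3 spread genes.

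The share of HOX reads from paralogs 9 to 13 in notochordal cells (8.04%) was 24.0% with 5 reads of *KRT19* and *TBXT* together, a group that takes in cells with 1 of the 2 genes. It was 5.09% without the top cell of each gene, 5.42% counting only cells with 5 reads, 3.28% within A951, 9.37% within A952 and 3.15% to 9.15% leaving out each tag. In other cells (69.9%) it was 70.6% after thinning, 70.9% without the top cells, 70.7% without the 5% of cells with most genes, 70.6% counting only cells with 5 reads, 68.4% within A951, 69.5% within A952 and 67.4% to 71.3% leaving out each tag.

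The share of notochordal cells with *HOXA2* to *HOXA5* (18.7%) was 11.4% after thinning, 27.4% from 1 read, 13.2% from 10 reads and 18.1% to 21.6% leaving out each tag. In other cells (3.59%) it was 2.06% after thinning, 9.53% from 1 read, 3.03% from 10 reads, 2.47% within A952, 5.80% with all paralogs 1 to 5 and 3.45% to 3.82% leaving out each tag. The share with paralogs 9 to 13 in notochordal cells (1.29%) was 5.20% with both genes together, 29.4% from 1 read, 0 within A951 and 0 to 1.65% leaving out each tag. In other cells (25.0%) it was 15.8% after thinning, 48.4% from 1 read, 21.4% from 10 reads, 22.0% within A951, 19.1% within A952 and 22.0% to 26.2% leaving out each tag.

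Of 139 ratios of the 10 HOX genes with the largest ratios under the alternatives, 127 kept their direction and their side of 2-fold, but their size moved. With 5 reads of *KRT19* and *TBXT* together, *HOXA6* went from -4.96 to -2.03, *HOXA9* from -6.08 to -2.41, *HOXA10* from -5.14 to -2.65, *HOXA11* from -6.35 to -1.82 and *HOXC8* from -5.05 to -3.90. Without A952 the ratios of *HOXA6*, *HOXA11* and *HOXC8* were -3.29, -4.71 and -3.58, that of *HOXA3* was 1.27 without A951 and 1.90 without A954, and that of *HOXA4* was 4.56 without A954. The 3 that reversed were those of *HOXC6*, with -0.029 for mean log2 values, -4.22 without the top cell and -4.03 without tag A951, and leaving out each tag gave -4.03 to 3.62. The other 9 were differences of mean log2 values. The few notochordal cells of A953 and A954, and genes with under 5 reads in them, limited what could be measured.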
